A study of Mus musculus with 12 samples.

Results

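Pericytes and vascular smooth muscle cells, together called mural cells, wrap the outside of the endothelial tube of brain vessels. A set of 10 usual marker genes of these cells (*Pdgfrb*, *Rgs5*, *Cspg4*, *Acta2*, *Tagln*, *Myh11*, *Des*, *Anpep*, *Abcc9* and *Vtn*) were followed through an RNA-seq experiment on intracerebral hemorrhage (ICH) in young and aged mice. They were picked by gene symbol, and all 10 were found among the 54833 genes of the deposited table. After ICH, *Pdgfrb* and *Des* rose at both ages, 2 of 10 members where 19.1% of all genes tested in young and 13.2% in aged mice were called. In aged mice both calls were lost when any of 4 single samples was left out. None of the other 8 members passed edgeR's test in any comparison. In the aged mice, *Cspg4*, *Abcc9* and *Vtn* were lower in every ICH sample than in every sham sample (3 of 10, as were 17.3% of all genes), without passing the test.

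The mice were male wild-type C57BL/6, young (8 to 10 weeks) or aged (20 to 22 months). ICH was made by injecting collagenase type IV, an enzyme that digests collagen and opens vessel walls, into the right basal ganglia, and sham mice received saline in the same operation. The tissue next to the hematoma in the caudate putamen, or the matching tissue of sham mice, was taken 24 h later, after perfusion with saline buffer. Age and surgery gave 4 groups with 3 samples in each, and each sample was a pool from several mice, so that the *P*-values measure the spread between pools. The enzyme acts on the vessel wall itself, and the sham mice did not receive it, so that ICH and exposure to collagenase cannot be told apart.

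Pericytes sit on capillaries, within the basement membrane that they share with the endothelium, and depend on PDGF-B, which endothelial cells release and which binds PDGF receptor beta on the pericyte. They are known for their part in the blood-brain barrier and in capillary tone. Smooth muscle cells ring the arteries and arterioles, and contract through smooth muscle actin and myosin, whose genes serum response factor and its coactivators switch on. Several of the markers are not private to mural cells. NG2, the product of *Cspg4*, also covers oligodendrocyte progenitors, and fibroblasts around the vessels carry PDGF receptor beta.

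Levels below are CPM, counts scaled to a common library total after TMM normalization, unless FPKM is named. FPKM divides by transcript length too and was used for ranking the members and for the ratios between them. The libraries held 28410896 to 37785160 counts. A change was called when edgeR's quasi-likelihood test gave a Benjamini-Hochberg adjusted *P* under 0.05 over the 21495 genes tested, and log2FC is the log2 fold change with its standard error (SE). In whole tissue, fewer cells of a type and less RNA per cell cannot be told apart.

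The libraries differed in their levels of choroid plexus and striatal neuron transcripts, and what set these levels was not tested. The summed level of 6 choroid plexus markers (led by *Ttr*) was 4054 CPM in young ICH sample 3, 1550 in aged ICH sample 1 and 1965 in aged ICH sample 2. It lay between 9.62 and 487 in the other 9 samples. The summed level of 7 markers of striatal projection neurons, which should define this tissue, ran from 1008 to 2067 CPM in the sham samples and from 240 to 1420 in the ICH samples, with all 7 detected in every sample. All members with values in this text were therefore refitted without the 3 samples rich in choroid plexus transcripts, a choice made after seeing the data.

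All 10 members were measured in every sample and passed the filter on low counts. Per length, *Rgs5* was the most abundant, with 24.9 to 37.1 FPKM and a median of 32.7 over the 12 samples. *Vtn* followed with 21.3 to 33.2 FPKM, a range that overlapped that of *Rgs5*. A gap separated these from *Pdgfrb* (4.48 to 8.52 FPKM), whose range overlapped that of *Acta2* (3.48 to 10.0). The remaining members lay lower, from *Abcc9* (median 2.29 FPKM), *Cspg4* (1.86), *Anpep* (1.35) and *Myh11* (1.23) to *Des* (0.716) and *Tagln* (0.186), and each of these overlapped its neighbors in that order. The pericyte transcripts *Rgs5* and *Vtn* thus stood above the contractile transcripts in every sample.

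**Figure D1:**
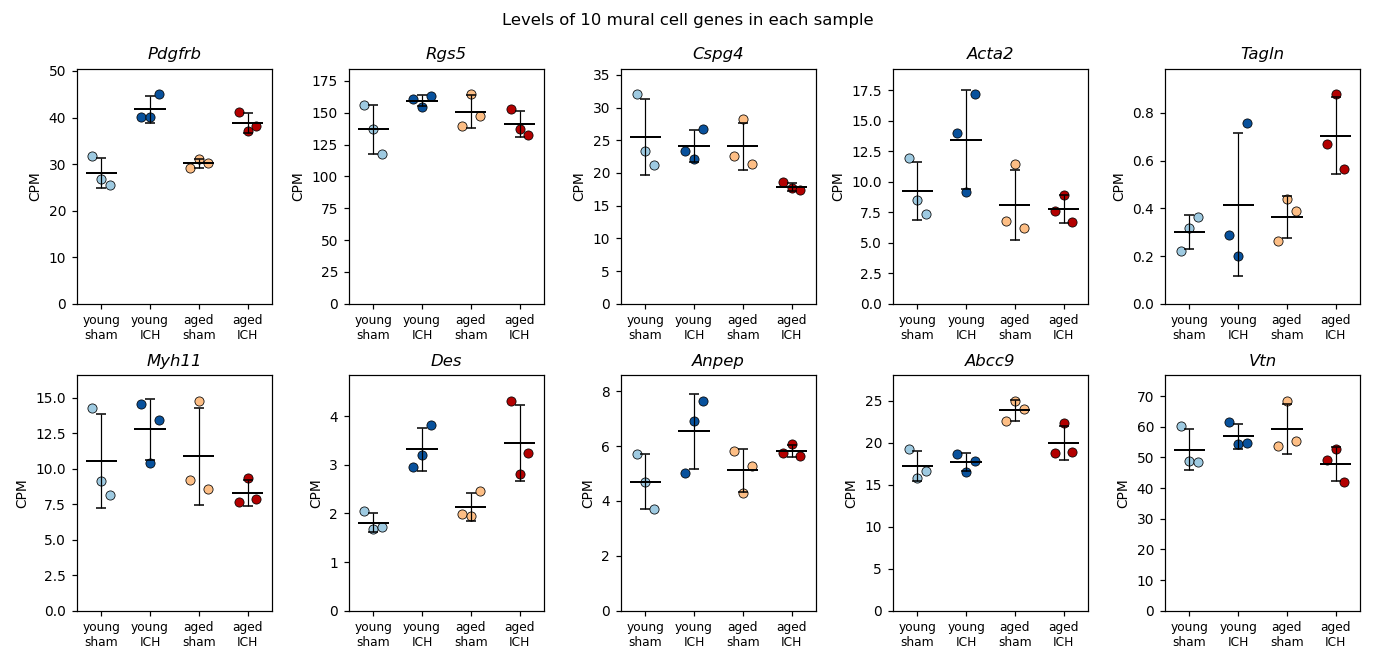
Levels of the 10 members in CPM (vertical axes from 0) in each of the 12 samples, by group. Points are samples, horizontal lines are group means and bars are the SD of 3 samples. *Pdgfrb* and *Des* are higher in all 3 ICH samples than in all 3 sham samples at both ages.

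*Pdgfrb* encodes PDGF receptor beta, the tyrosine kinase that keeps pericytes on the vessel (ENSMUSG00000024620, GRCm38 chr18:61045150-61085061, plus strand). Its level was 31.7, 26.9 and 25.5 CPM in the young sham samples and 40.1, 40.1 and 45.1 in the young ICH samples. In the aged mice it was 29.1, 31.1 and 30.3 CPM after sham surgery and 41.2, 37.2 and 38.1 after ICH. No sham sample reached the level of any ICH sample. The rise was 1.49-fold in young mice (log2FC 0.57, SE 0.09, adjusted *P* = 0.00216) and 1.29-fold in aged mice (log2FC 0.36, SE 0.09, adjusted *P* = 0.02). Averaged over both ages the log2FC was 0.47 (SE 0.06, adjusted *P* = 0.000286), and this call held when any one of the 12 samples was left out. The young call held in 6 of 6 such fits as well. The aged call held in 2 of 6 and was lost, with adjusted *P* from 0.0501 to 0.0914, without aged sham sample 1 or 2 or aged ICH sample 1 or 3. Without the choroid plexus-rich samples the log2FC was 0.52 in young mice (adjusted *P* = 0.0147) and 0.34 in aged mice (adjusted *P* = 0.147), where a lone ICH sample was left and was assumed to vary like the other groups. The difference between the aged and the young response was −0.21 (SE 0.12, 95% interval −0.48 to 0.06).

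*Rgs5* encodes a regulator that speeds the shutdown of G protein signals and is among the strongest pericyte markers of the brain (ENSMUSG00000026678, chr1:169655501-169695813, plus strand). It measured 156, 137 and 118 CPM in young sham and 161, 155 and 163 in young ICH samples. The aged sham samples had 140, 165 and 148 CPM and the aged ICH samples 153, 138 and 133. Sham and ICH samples overlapped at both ages. The log2FC was 0.22 (SE 0.10, adjusted *P* = 0.14) in young and −0.10 (SE 0.10, adjusted *P* = 0.56) in aged mice. Without young sham sample 1, the highest of its group, the young value was 0.32 and passed the test (adjusted *P* = 0.0419), and without young sham sample 3, the lowest, it was 0.12 (adjusted *P* = 0.411). In limma on log2(FPKM + 1) it was 0.31 and was called (adjusted *P* = 0.0465). Every aged ICH sample lay below every young ICH sample, with a log2FC of −0.18 (adjusted *P* = 0.603).

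*Rgs5*, the most abundant member, was taken as the denominator of ratios within each library, which does not make it an unchanged reference. The ratio of *Pdgfrb* to *Rgs5* in FPKM was 0.163 to 0.180 in young sham, 0.207 to 0.230 in young ICH, 0.157 to 0.173 in aged sham and, after ICH in aged mice, 0.224 to 0.238. All 6 ICH samples lay above the 6 sham samples. The same ratio for *Des* ran from 0.0144 to 0.0201 over the sham samples and from 0.0223 to 0.0343 over the ICH samples. *Pdgfrb* and *Des* thus changed unequally to *Rgs5* within the libraries. For *Vtn* the ratio to *Rgs5* overlapped between sham and ICH samples, with means after sham surgery and ICH of 0.862 and 0.798 in young mice and of 0.878 and 0.762 in aged mice. The ratio of *Acta2* to *Myh11*, both contractile genes, had a mean of 3.16 in aged sham and 3.97 in aged ICH samples, which did not overlap. It ran from 3.55 to 3.94 in young sham and from 3.75 to 5.46 in young ICH samples, which did overlap. The ratios are descriptions of the samples already tested gene by gene.

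**Figure D2:**
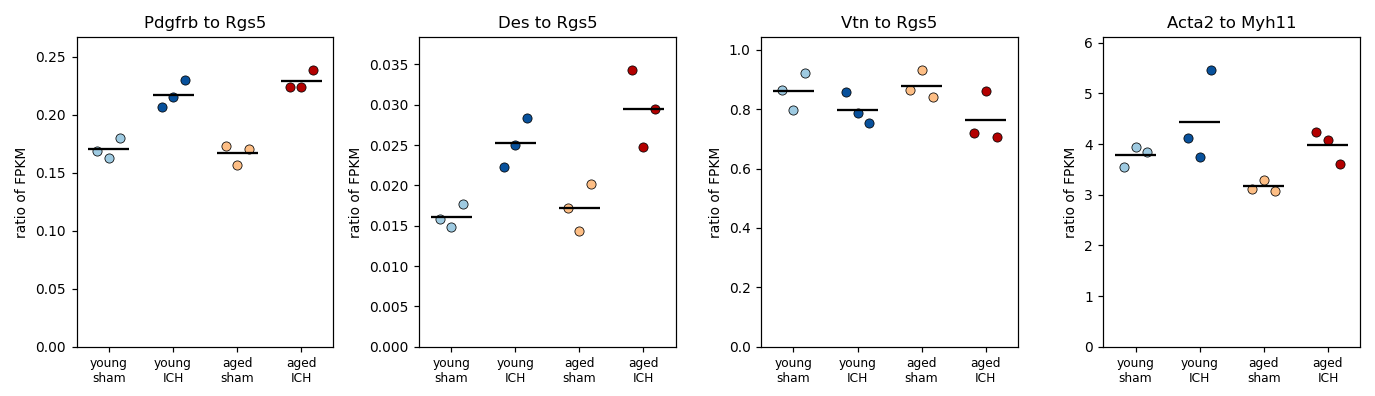
Ratio of FPKM values of 2 members in each of the 12 samples (vertical axes from 0), by group. Points are samples and lines are group means. *Pdgfrb* to *Rgs5* and *Des* to *Rgs5* are higher in all 6 ICH samples than in all 6 sham samples, while *Vtn* to *Rgs5* overlaps.

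*Vtn* encodes vitronectin, an adhesive matrix protein that brain pericytes secrete (ENSMUSG00000017344, chr11:78499091-78502324, plus strand). Its levels were 60.3, 48.8 and 48.5 CPM in young sham and 61.6, 54.3 and 54.7 in young ICH samples, which overlapped. The aged sham samples had 53.8, 68.5 and 55.4 CPM and the aged ICH samples 49.0, 52.9 and 41.9, so that each aged ICH sample was below each aged sham sample. The log2FC was 0.11 (SE 0.12, adjusted *P* = 0.552) in young and −0.31 (SE 0.12, adjusted *P* = 0.117) in aged mice. Neither value passed the test. Without the choroid plexus-rich samples the aged value was −0.49 (adjusted *P* = 0.152), over 1.5 times as far from 0, and without aged sham sample 2 it was −0.19.

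*Abcc9* encodes the sulfonylurea receptor subunit of the ATP-sensitive potassium channel of mural cells (ENSMUSG00000030249, chr6:142587862-142702315, minus strand). It measured 19.2, 15.7 and 16.6 CPM in young sham, 18.7, 16.5 and 17.8 in young ICH, 22.5, 24.98 and 24.0 in aged sham and 18.8, 22.3 and 18.9 in aged ICH samples. The 3 aged sham samples were the highest of the 12. The aged sham samples exceeded the young sham samples by a log2FC of 0.47 (SE 0.10, unadjusted *P* = 0.000451), which did not pass adjustment in edgeR's test (adjusted *P* = 0.126) and passed it in DESeq2 (adjusted *P* = 0.00652). After ICH the log2FC was 0.04 (SE 0.10) in young and −0.25 (SE 0.10, adjusted *P* = 0.107) in aged mice, and the aged value was −0.34 (adjusted *P* = 0.0445) without aged ICH sample 2 and −0.21 without aged ICH sample 1. An antisense gene covers 1.89% of the exon bases.

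*Cspg4* encodes the NG2 proteoglycan of pericytes and oligodendrocyte progenitors (ENSMUSG00000032911, chr9:56865033-56899870, plus strand). Its levels were 32.1, 23.3 and 21.2 CPM in young sham and 23.3, 22.1 and 26.8 in young ICH samples, with a log2FC of −0.09 (SE 0.15) that turned to 0.11 without young sham sample 1. The aged sham samples had 22.6, 28.2 and 21.4 CPM and the aged ICH samples 18.6, 17.6 and 17.4, the lowest 3 of the 12. The aged log2FC was −0.43 (SE 0.15, adjusted *P* = 0.0837), which DESeq2 called (adjusted *P* = 0.0402). Markers of oligodendrocyte progenitors moved beside it. All 7 were lower in aged ICH than in aged sham samples, with a median log2FC of −0.31, and *Gpr17* (−1.19) and *Neu4* (−0.92) were called. Their summed level was 186 to 252 CPM in aged sham and 149 to 192 in aged ICH samples. In young mice it was 233 to 305 CPM after sham surgery and 205 to 277 after ICH, with 0 of 7 called by edgeR or DESeq2 and 0 with an unadjusted *P* under 0.05. The share of either cell type in the *Cspg4* value was not tested.

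*Anpep* encodes aminopeptidase N, or CD13, a surface enzyme of pericytes (ENSMUSG00000039062, chr7:79821803-79861059, minus strand). It measured 5.72, 4.69 and 3.70 CPM in young sham, 5.02, 6.92 and 7.66 in young ICH, 5.83, 4.28 and 5.27 in aged sham and 5.74, 6.06 and 5.66 in aged ICH samples. Sham and ICH samples overlapped at both ages. The log2FC was 0.47 (SE 0.19, adjusted *P* = 0.111) in young and 0.18 (SE 0.19, adjusted *P* = 0.575) in aged mice. Without young ICH sample 1 the young value was 0.63 and passed the test (adjusted *P* = 0.0462), and over the other samples left out in turn it ran as low as 0.32, with adjusted *P* up to 0.309.

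*Acta2* encodes smooth muscle alpha-actin, the thin filament of arterial and arteriolar smooth muscle (ENSMUSG00000035783, chr19:34241090-34255590, minus strand). Its promoter is a textbook target of serum response factor, which binds the CArG box. Both strands of the 250 bases upstream of the RefSeq start (GRCm38.p6) were searched. *Pdgfrb* and the smooth muscle members *Tagln* and *Myh11* had no RefSeq promoter window and were not searched. The exact box occurred in 1.47% of 32851 such windows and in none of those of the 7 members with a window. Allowing 1 C or G within the A and T core, it occurred in 8.59% of windows, and among the 7 members in that of *Acta2* alone, at the 2 sites shown here because they are the ones found (5′ to 3′ on the minus strand, the CArG-like element in capitals). The first site is at chr19:34255438-34255467 and its element lies 84 to 75 bases before the start. The second is at chr19:34255388-34255417 and its element lies 34 to 25 bases before the start. The start meant is the RefSeq one. The GENCODE interval given above begins farther upstream, so that both sites lie within it.
*Acta2* site 1: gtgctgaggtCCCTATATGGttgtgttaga
*Acta2* site 2: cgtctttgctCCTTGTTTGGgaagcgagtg

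*Acta2*, the member with these sites, measured 11.9, 8.47 and 7.36 CPM in young sham and 14.02, 9.12 and 17.2 in young ICH samples. In aged mice it was 6.75, 11.4 and 6.20 CPM after sham surgery and 7.64, 8.94 and 6.66 after ICH. Sham and ICH samples overlapped at both ages. The log2FC was 0.54 (SE 0.28, adjusted *P* = 0.198) in young mice and −0.07 (SE 0.28, adjusted *P* = 0.901) in aged mice. Each aged ICH sample lay below each young ICH sample, with a log2FC of −0.80 (SE 0.28, unadjusted *P* = 0.0147, adjusted *P* = 0.403). No 100-base stretch of its transcripts was shared with another gene, and the closely related actin genes *Actg2* (1 to 9 counts) and *Actc1* (0 to 5 counts) were near the limit of detection, while *Acta1* had 96 to 174 counts beside 204 to 546 for *Acta2*. With 1 sample left out the *Acta2* log2FC ran from 0.32 to 0.76 in young mice, with no call.

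*Myh11* encodes the smooth muscle myosin heavy chain, the most selective marker of the contractile state (ENSMUSG00000018830, chr16:14194535-14291372, minus strand). It measured 14.3, 9.17 and 8.18 CPM in young sham, 14.5, 10.4 and 13.5 in young ICH, 9.23, 14.8 and 8.59 in aged sham and 7.69, 9.34 and 7.89 in aged ICH samples. Sham and ICH samples overlapped at both ages, with young sham sample 1 and aged sham sample 2 far above the others of their groups. The log2FC was 0.28 (SE 0.24, adjusted *P* = 0.462) in young and −0.39 (SE 0.24, adjusted *P* = 0.324) in aged mice. With 1 sample left out they ran from 0.12 (without young sham sample 3) to 0.56 (without young sham sample 1) and from −0.53 to −0.10 (without aged sham sample 2), with no call. As with *Acta2*, all aged ICH samples were below all young ICH samples (log2FC −0.62, SE 0.24, unadjusted *P* = 0.0253, adjusted *P* = 0.456).

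*Tagln* encodes transgelin, or SM22 alpha, an actin-binding protein of smooth muscle (ENSMUSG00000032085, chr9:45929619-45936058, minus strand). It was the least abundant member, with 8, 10 and 11 counts in young sham, 10, 6 and 24 in young ICH, 8, 13 and 13 in aged sham and 24, 26 and 18 in aged ICH samples. The aged groups did not overlap, and the aged log2FC was 0.94 (SE 0.43, adjusted *P* = 0.177). The young log2FC of 0.47 (SE 0.47) rested on young ICH sample 3 and was −0.27 without it. Genes on the opposite strand cover 67.9% of its exon bases, among them the antisense gene *Gm48529* (62.4%) with 19 to 38 counts. The sources used here do not say whether reads were counted by strand, so that the *Tagln* counts are uncertain.

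*Des* encodes desmin, the intermediate filament of muscle that pericytes also make (ENSMUSG00000026208, chr1:75360329-75368579, plus strand). Its level was 2.04, 1.68 and 1.72 CPM in young sham and 2.96, 3.20 and 3.81 in young ICH samples. It was 1.99, 1.96 and 2.46 CPM in aged sham and 4.32, 2.81 and 3.24 in aged ICH samples. All 6 ICH samples exceeded all 6 sham samples. The rise was 1.83-fold in young mice (log2FC 0.87, SE 0.19, adjusted *P* = 0.0108) and 1.62-fold in aged mice (log2FC 0.70, SE 0.19, adjusted *P* = 0.0356), and the log2FC averaged over both ages was 0.78 (SE 0.14, adjusted *P* = 0.00137). The averaged call held when any one of the 12 samples was left out. The young call was lost without young sham sample 2 (adjusted *P* = 0.0509). The aged call was also lost without the filter on low counts (adjusted *P* = 0.053) and in a fit of the aged groups alone (adjusted *P* = 0.0652). It was lost too, with adjusted *P* from 0.0725 to 0.164, without aged sham sample 1 or 2 or aged ICH sample 1 or 3. Without the choroid plexus-rich samples the log2FC was 0.76 in young (adjusted *P* = 0.0384) and 0.61 in aged mice (adjusted *P* = 0.192). On the log2(FPKM + 1) scale, which shrinks the change of low genes, the *Des* values were 0.38 and 0.32 and were called by limma. An antisense gene covers 5.86% of the *Des* exon bases. Of 4 skeletal and cardiac muscle markers tested, edgeR called none higher. The summed level of all 7 listed was 11.01 to 15.2 CPM in the sham samples and 8.98 to 13.1 in the ICH samples, and *Myh6* was called lower in aged mice (log2FC −0.96).

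Over the members, 2 of 10 were called in young ICH vs. young sham, both higher, where 19.1% of all genes tested were called. In aged ICH vs. aged sham it was 2 of 10, beside 13.2% of all genes. In the average over both ages it was 2 of 10, beside 32.4%. The counts were not tested against these shares. By the study's own rule, a fold change above 1.5 or below 0.67 with an unadjusted *P* under 0.05, *Des* passed in young mice (12.2% of all genes did) and in aged mice (10.1%), and *Des* and *Tagln* passed in the average (12.4%). The samples of the groups did not overlap for 2 members in young mice, both higher after ICH (18.5% of all genes were higher in this way and 16.5% lower). In aged mice 3 members were higher (17.8% of all genes) and 3 lower (17.3%). The median log2FC of the members was 0.37 in young and −0.08 in aged mice, beside 0.02 and 0.00184 over all genes.

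**Figure D3:**
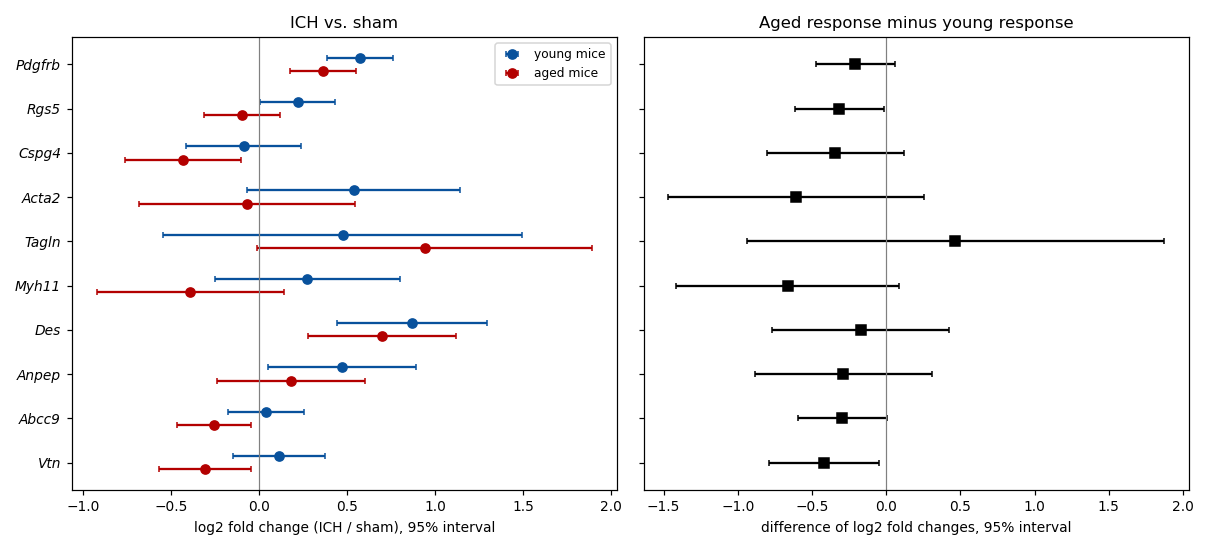
Left, log2 fold change of ICH over sham for each member in young (blue) and aged (red) mice. Right, the aged minus the young response. Points are edgeR estimates and bars are 95% intervals. *Pdgfrb* and *Des* lie above 0 at both ages, and 9 of 10 differences lie below 0, with intervals that include 0 except for *Rgs5* and *Vtn*.

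Age without hemorrhage was compared in the sham groups. No member was called by edgeR between aged sham and young sham mice, where 0.102% of all genes were called. An unadjusted *P* under 0.05 was found for 1 member (*Abcc9*), beside 2653 of the 21495 genes tested, and DESeq2 called that gene. The study's rule passed 0 of 10 members, beside 3.72% of all genes. Between aged ICH and young ICH mice edgeR and DESeq2 called 0 of 10, beside 0.0558% of all genes by edgeR. In this comparison 3 members had an unadjusted *P* under 0.05, beside 2050 of the 21495 genes tested. The 3 members were *Acta2*, *Myh11* and *Cspg4*. The study's rule passed the first 2 of these, both lower in aged mice, beside 3.52% of all genes. In 5 members (*Rgs5*, *Cspg4*, *Acta2*, *Myh11* and *Vtn*) every aged ICH sample was below every young ICH sample, as in 6.42% of all genes, and in *Abcc9* every one was above, as in 6.9%. None of these 6 was called, and the members moved together from sample to sample.

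The response to ICH was then compared between the ages as an interaction. For 9 of 10 members the log2FC was lower in aged mice, with *Tagln* the exception. The median difference of log2FC was −0.31, beside −0.00508 over all genes. By sign, the log2FC was lower in aged mice for most other lists too, and for 51.1% of all genes. It was lower for 11 of 11 endothelial (median −0.18), 8 of 8 fibroblast (−0.46) and 7 of 7 oligodendrocyte progenitor markers (−0.39). The same held for 6 of 6 neutrophil (−1.01), 8 of 9 monocyte and macrophage (−0.20) and 6 of 7 striatal neuron markers (−0.22). Among mural lists it held for 11 of 13 further pericyte (−0.17), 11 of 14 further contractile (−0.46) and 4 of 5 PDGF genes (−0.03). The response was higher in aged mice for 5 of 6 choroid plexus markers (1.08) and 5 of 8 smooth muscle regulators (0.05). Skeletal and cardiac muscle markers split 2 and 2. By medians in young and aged mice, lower meant a larger fall for oligodendrocyte progenitor (−0.15 and −0.31) and striatal neuron markers (−0.95 and −1.13). It meant a smaller rise for endothelial (0.40 and 0.29) and neutrophil markers (3.38 and 2.23). No member was called by edgeR or DESeq2, and edgeR called 0% of all genes (606 genes had an unadjusted *P* under 0.05, and DESeq2 called 1). The 95% interval left out 0 for *Vtn* (−0.42, interval −0.79 to −0.05) and for *Rgs5* (−0.32, interval −0.62 to −0.01), whose unadjusted *P* were the only ones of the 10 under 0.05. Applied to this difference, the fold change rule passed 0 of 10 members and 1.56% of all genes. The 10 differences come from the same 12 samples, in which the members moved together, and are not 10 separate observations.

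Within the groups the members did rise and fall together. Young sham sample 1 was the highest of its group for 9 of 10 members, aged sham sample 2 for 8 and young ICH sample 3 for 7, while aged ICH sample 3 was above its group mean for 0. Over the 12 samples, after subtracting the group means from log2 CPM, Pearson's r was 0.91 for *Acta2* and *Myh11*, 0.88 for *Cspg4* and *Myh11*, 0.88 for *Pdgfrb* and *Cspg4* and 0.84 for *Pdgfrb* and *Rgs5*. It was −0.14 for *Des* and *Abcc9*, the lowest of the 45 pairs. Levels of other cell types moved with the same samples. Young sham sample 1 had the highest summed endothelial (565 CPM), oligodendrocyte progenitor (305 CPM) and striatal neuron (2067 CPM) markers of its group, and aged sham sample 2 likewise (552, 252 and 1850 CPM). Their part in the members' values was not tested.

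**Figure D4:**
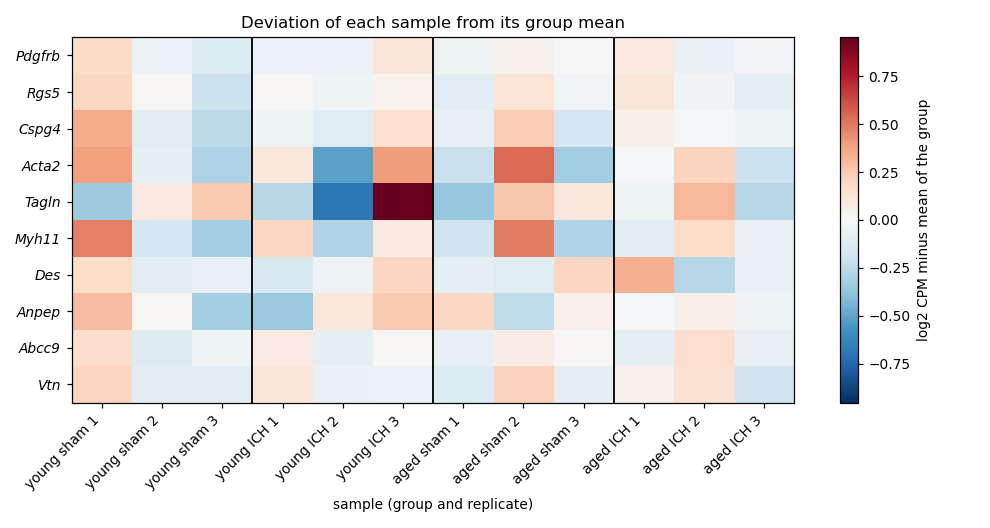
Log2 CPM of each member (rows) in each sample (columns) minus the mean of its group, in color. Black lines separate the 4 groups. Young sham 1 and aged sham 2 are high for most members, and the largest deviation is that of *Tagln* in young ICH 3 (0.95).

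The genes whose deviations were most like those of 4 members were read from 16822 genes with a mean of at least 1 CPM, as the highest r over the same 12 samples. For *Pdgfrb* they were *Cavin1*, a coat protein of caveolae (r = 0.97), *Mtm1* (0.96), *Lamb2*, a laminin chain of vessel basement membranes (0.96), *Gas2l1* (0.95) and *Kif13b* (0.95). For *Rgs5* they were *Cd276* (0.94), *Reck* (0.93), *Gm16576* (0.92), *Myom1* (0.92) and *Cped1* (0.92). For *Acta2* they were *Zfp775* (0.97), *Rps10-ps2* (0.96), *Sgms1* (0.95), *Klhl4* (0.95) and *Gtf2ird1* (0.94). For *Myh11* they were *Ntn1* (0.98), *Gm48700* (0.95), *Sgms1* (0.95), *Mrap2* (0.95) and *Tekt5* (0.95). The *Acta2* and *Myh11* lists share *Sgms1*. These are the top ends of long rankings over few samples that share library and dissection, and carry no test.

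Other genes of the mural pathways were described by lists. Of 13 further pericyte genes, 0 were called by edgeR or DESeq2 at either age (4 in young and 3 in aged mice had an unadjusted *P* under 0.05), with a median log2FC of 0.39 in young and −0.13 in aged mice, like the members' own. In the average over both ages 2 were higher, *Ndufa4l2*, a mitochondrial protein (log2FC 0.48), and *P2ry14*, a receptor for UDP sugars (0.35), and *Art3* was lower (−0.34). Of 14 further contractile genes tested, 4 rose and 1 fell in young mice. *Filip1l* rose by a log2FC of 0.90, *Flna*, the actin crosslinker filamin A, by 0.76, *Cald1*, caldesmon, by 0.63 and *Mylk*, myosin light chain kinase, by 0.48, while *Tpm1*, tropomyosin, had −0.38. In aged mice 2 of the 14 rose, *Flna* (0.89) and *Filip1l* (0.48), and none fell. *Flna* and *Tpm1* are used far beyond smooth muscle. Their mean levels were 222 and 178 CPM and that of *Mylk* was 21.8, in a unit not corrected for transcript length.

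Among the regulators of smooth muscle genes, 8 of 10 were tested, and *Myocd* (at most 13 counts) and *Gata6* (at most 6) were too low. In young mice *Tead1*, a factor of the Hippo pathway (log2FC 0.89), and *Klf4*, a factor that represses contractile genes (0.59), rose, and *Mrtfb*, a coactivator of serum response factor, fell (−0.43). In aged mice *Tead1* (0.77), *Prrx1* (0.51) and *Elk1*, a partner of serum response factor (0.36), rose. The genes called at 1 age alone had the same direction at the other. *Klf4* had 0.49 and *Mrtfb* −0.32 in aged mice, and *Prrx1* had 0.40 and *Elk1* 0.30 in young mice. Among the called regulators mean levels ran from 9.07 CPM (*Klf4*) to 330 CPM (*Mrtfb*) in the whole tissue. Which of its cells carried these changes was not tested. Of the 5 PDGF genes beside *Pdgfrb* (4 ligands and the alpha receptor), *Pdgfa* rose at both ages (log2FC 0.37 in young and 0.36 in aged mice) and the other 4 were not called in either. *Pdgfb*, whose product is the ligand of the receptor on pericytes and which was looked at after its values were seen, had 0.13 and 0.11.

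**Figure D5:**
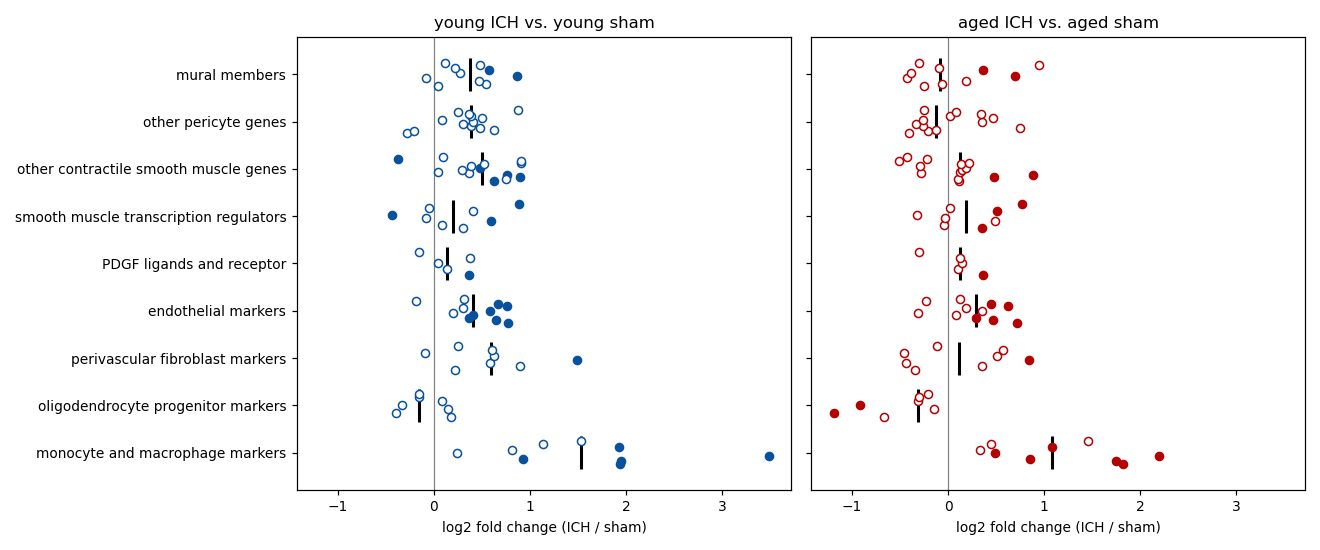
Log2 fold change of ICH over sham of each tested gene, by list, in young (left) and aged (right) mice. Filled points were called by edgeR, open points were not, and black bars are list medians. The members' median is 0.37 in young and −0.08 in aged mice, and the endothelial medians are 0.40 and 0.29.

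The neighbors of mural cells on the vessel were followed by marker lists. Of 11 endothelial markers, *Slco1a4* was lower at both ages (log2FC −0.18 in young and −0.23 in aged mice), without a call. *Kdr* was lower in aged mice (−0.31), also without a call. In the list 7 were called higher in young and 5 in aged mice and none was called lower. In the average over both ages the largest of these rises were those of *Cdh5* (log2FC 0.74), *Pecam1* (0.69), *Slc2a1* (0.56), *Cldn5* (0.56), *Ly6c1* (0.47) and *Egfl7* (0.33). *Cdh5*, *Pecam1* and *Cldn5* encode junction proteins and *Slc2a1* the glucose transporter of brain endothelium. The summed level of all 11 endothelial markers was 441 to 565 CPM in young sham and 653 to 713 in young ICH samples. In aged mice it was 482 to 552 in sham and 594 to 692 in ICH samples. Sham and ICH samples did not overlap at either age, as for *Pdgfrb*. Of 8 fibroblast markers, *Dcn*, the matrix proteoglycan decorin, rose in young (log2FC 1.49) and aged mice (0.84), and *Lum* was called in the average (0.58). By direction alone, 7 were higher and 1 lower in young mice, and 4 were higher and 4 lower in aged mice. None was called lower. The summed fibroblast level was 39.9 to 74.6 CPM in young sham and 79.0 to 136 in young ICH, 41.2 to 65.9 in aged sham and 59.4 to 75.3 in aged ICH samples. Whether endothelial or fibroblast RNA took part in the *Pdgfrb* and *Des* values was not tested.

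Leukocyte markers, several of which microglia also express, were higher in the same tissue. Monocyte and macrophage markers were called higher for 5 of 9 in young and 6 of 9 in aged mice, with summed levels of 53.0 to 118 CPM in the sham and 112 to 194 in the ICH samples. Neutrophil markers were called higher for 6 of 6 and 5 of 6 tested, and *Ly6g* was too low to test (at most 4 counts). Of the choroid plexus markers 0 of 6 were called at either age by edgeR (0 in young and 2 in aged mice had an unadjusted *P* under 0.05, and DESeq2 called 1 in aged mice), and *Folr1* was called in the average (log2FC 3.18). Of the striatal neuron markers all 7 were lower after ICH at both ages and 0 were called at either age by edgeR or DESeq2 or had an unadjusted *P* under 0.05, with median log2FC of −0.95 and −1.13. Their part in the members' changes was not tested.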

How the data were processed

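The authors deposited raw counts per gene and FPKM for 12 libraries in a single table. Per the labels and the study's methods, reads were aligned to GRCm38.p6 with HISAT2 and counted with featureCounts (Subread); strand setting and treatment of multiply aligned reads are not given in the sources used here. All sample columns were mapped to groups by their names.

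The deposited counts were tested with edgeR 4.0.16 (limma 3.58.1, R 4.3.3), with TMM scaling, all 12 samples in 4 groups and genes passing filterByExpr (minimum count 10). The 4 comparisons of the study, the average of the ICH responses over both ages and their difference (the interaction) were contrasts of this fit, at 28410896 to 37785160 counts per library. SE is the absolute log2FC over the square root of F. CPM logarithms used a prior count of 2. The deposited FPKM values served for ranking the members, for their ratios and, in limma with a pseudocount of 1, as an alternative. DESeq2 1.42.0, RLE scaling, no filter, a replicate block, only 2 groups, the study's rule and leaving out samples were also tried. The scripts were tested on simulated data.

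Members and lists were chosen with earlier results of these data known. All members are named. From each list up to 6 called genes with the largest change in the averaged comparison are named, and 5 most alike genes for *Pdgfrb*, *Rgs5*, *Acta2* and *Myh11*. Other names were added after their values were seen. Positions come from GENCODE and promoters from RefSeq, which held windows for 7 of 10 members.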

Additional observations from a re-analysis of the deposited data

Results flagged for a closer look

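For 2 members the test of the difference between the ages in the response to ICH gave an unadjusted *P* under 0.05. It did so for 606 of the 21495 genes tested. The aged minus the young log2FC was −0.42 for *Vtn* (95% interval −0.79 to −0.05) and −0.32 for *Rgs5* (−0.62 to −0.01). Neither passed adjustment over all genes (edgeR's adjusted *P* = 0.99991 for each). Both differences kept their sign when any one of the 12 samples was left out.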

How the results depend on the processing

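Each member's log2FC in each comparison was counted once per refit. In the average over both ages only *Pdgfrb* and *Des* were counted. Direction and call held for 699 of these values, 17 were reversed, 6 gained a call and 13 lost it. A value without a call that stayed without one counts as held. With the study's rule 1 member passed in young ICH vs. sham, 1 in aged ICH vs. sham and 2 in aged vs. young ICH. In aged ICH vs. sham, 1 member (*Pdgfrb*, *Des* being lost) was called without the low-count filter, 1 (the same) with only the 2 groups compared and 0 without the choroid plexus-rich samples. DESeq2 called 1 in aged vs. young sham. The cause was not tested. Leaving out 1 sample gave 1 to 3 calls in young, 0 to 3 in aged and 2 to 3 in the average. Small values changed sign with limma on log2(FPKM + 1), where *Cspg4* in young ICH vs. sham was 0.0121 and *Acta2* in aged ICH vs. sham 0.0319, and *Tagln* in young ICH vs. sham was −0.27 without the choroid plexus-rich samples. With 1 sample left out, ICH vs. sham ranged from −0.20 to 0.11 for *Cspg4*, −0.0197 to 0.13 for *Abcc9* and −0.27 to 0.80 for *Tagln* in young mice, and from −0.23 to 0.26 for *Acta2* in aged mice. Aged vs. young sham ranged from −0.22 to 0.11 for *Cspg4*, −0.52 to 0.0361 for *Acta2*, −0.25 to 0.32 for *Myh11* and −0.0242 to 0.29 for *Anpep*, and aged vs. young ICH from −0.14 to 0.19 for *Des*. Same-numbered samples did not deviate together (r from −0.45 to 0.23). With so few samples per group, which also differ in choroid plexus and striatal neuron transcripts, this cannot decide whether the numbers mark pairs. With a replicate block 2 members were called in young, 2 in aged mice and 2 in the average, and calls over all genes went from 4110 to 3502, 2828 to 2464 and 6973 to 6361, and from 22 to 12 in aged vs. young sham and 12 to 8 in aged vs. young ICH. *Tagln*, with 6 to 26 counts, is limited by depth.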
